A study of Macaca mulatta with 22 samples.

Results

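The genes described here are the histone modifiers and chromatin remodellers measured in single rhesus macaque follicles around ovulation. They were taken by name from the platform's annotation: every gene with a single symbol belonging to the histone deacetylase (HDAC), sirtuin (SIRT), lysine demethylase (KDM), lysine methyltransferase (KMT2, KMT5, SETD, EZH), arginine methyltransferase (PRMT), lysine acetyltransferase (KAT), bromodomain (BRD), SWI/SNF and related (SMARC), ARID, CHD, DNA methyltransferase (DNMT) or TET families. This gave 90 genes of 14132 with a single symbol, measured by 207 of the 52766 probe sets tested. A gene measured by several probe sets is given by its brightest (highest mean across the arrays), and a level is the log2 of its intensity. The rule itself uses names and no measured value, though the families were chosen with earlier results of these data known. Of the 90 genes, 89 had a gene ID in the RefSeq gene table, all 89 under the same symbol.

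Chromatin is set by enzymes that write marks on histone tails, such as acetyl- and methyltransferases, by enzymes that erase them, such as deacetylases and demethylases, and by bromodomain proteins that read acetylated lysines. Remodellers such as the SWI/SNF and CHD ATPases slide or evict nucleosomes, DNA methyltransferases place methyl groups on cytosine, and TET dioxygenases oxidise those groups. In the ovulatory follicle the surge of luteinising hormone, given here as human chorionic gonadotropin (hCG), turns granulosa cells from dividing, oestrogen-making cells into luteal cells within about a day, with a wide change in transcription.

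RNA of 22 dominant follicles was measured, 1 follicle per array. The females, in controlled menstrual cycles, received Acyline, an antagonist of GnRH, at 0.1 ml/kg and 30 IU each of recombinant FSH and LH once estradiol reached 100 to 120 pg/ml. The 6 follicles of the 0 h group were taken without hCG, and the other 16 after 1000 IU of hCG: 4 at 12 h, 4 at 24 h, 4 at 36 h before rupture (unruptured) and 4 at 36 h after rupture (ruptured). The animals' age was not given in the labels, nor whether the follicles of a group came from separate animals, and p-values therefore reflect only how far single follicles spread, which may be technical in part. The 36 h follicles were divided by whether they had ovulated, not by an assigned treatment.

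Whole follicles mix granulosa, theca, stromal, vascular and blood cells, so fewer cells of a type and less RNA per cell cannot be told apart. The mean level of 12 proliferation markers was 8.08 ± 0.19 (SD, n = 6) before hCG and 7.21 ± 0.29, 7.18 ± 0.23, 7.20 ± 0.11 and 6.83 ± 0.17 (n = 4 each) in the 12 h, 24 h, unruptured and ruptured groups. The mean of 6 macrophage and monocyte markers was 7.31 ± 0.39, 8.51 ± 0.73, 8.08 ± 0.48, 7.83 ± 0.28 and 7.69 ± 0.41 in the same order, and that of 7 granulosa markers 9.27 ± 0.50, 7.44 ± 0.48, 6.76 ± 0.39, 6.81 ± 0.75 and 7.76 ± 0.51. In that order 5 theca markers averaged 9.91 ± 0.19, 9.42 ± 0.25, 9.12 ± 0.21, 8.90 ± 0.06 and 8.90 ± 0.16. The mean of 4 neutrophil markers was 4.02 ± 0.86, 5.08 ± 0.41, 5.51 ± 0.14, 5.66 ± 0.41 and 5.73 ± 0.32, with 3 of the 4 higher after rupture than at 0 h, and that of 6 endothelial markers ran from 7.17 ± 0.34 to 7.73 ± 0.14. Lymphocyte, smooth muscle, oocyte and erythroid markers were also measured, with 0, 1, 1 and 0 of 3, 2, 7 and 2 genes differing over the 5 groups at an unadjusted p under 0.05. The part of these cell types in the changes of the 90 genes was not tested. An index of RNA quality, the 3' minus 5' difference of the control transcripts, averaged between 0.26 and 0.35 in every group, with the highest single value, 0.48, at 12 h. The arrays give no detection calls, and 85 of the 90 genes lay above the median of all probe sets.

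Across the 5 groups 44 of the 90 chromatin genes differed (limma F test, Benjamini-Hochberg adjusted p under 0.05 over all probe sets), where 29% of all single-symbol genes did. Since dim genes rarely pass, a second background was taken after seeing the data, over the 9566 genes brighter than the median of all probe sets; 40.1% of those passed. The most frequent pattern was a low in the ruptured follicle. That group had the lowest mean for 46 of the 90 genes (51.1%), where it was the lowest for 25.9% of all genes. It was also the lowest for 30 of the 44 that passed. The share among all genes that passed was not computed, so that count has no background. The mean level over the 90 genes, computed per array as a description, was 7.43 ± 0.05 before hCG and then 7.28 ± 0.03, 7.44 ± 0.07, 7.43 ± 0.05 and 7.25 ± 0.05 for 12 h, 24 h, unruptured and ruptured, while that over the brighter genes stayed between 7.51 and 7.54. The 12 h arrays, at 7.25 to 7.31, and the ruptured arrays, at 7.19 to 7.32, all lay below the 0 h arrays, whose lowest was 7.37.

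**Figure D1:**
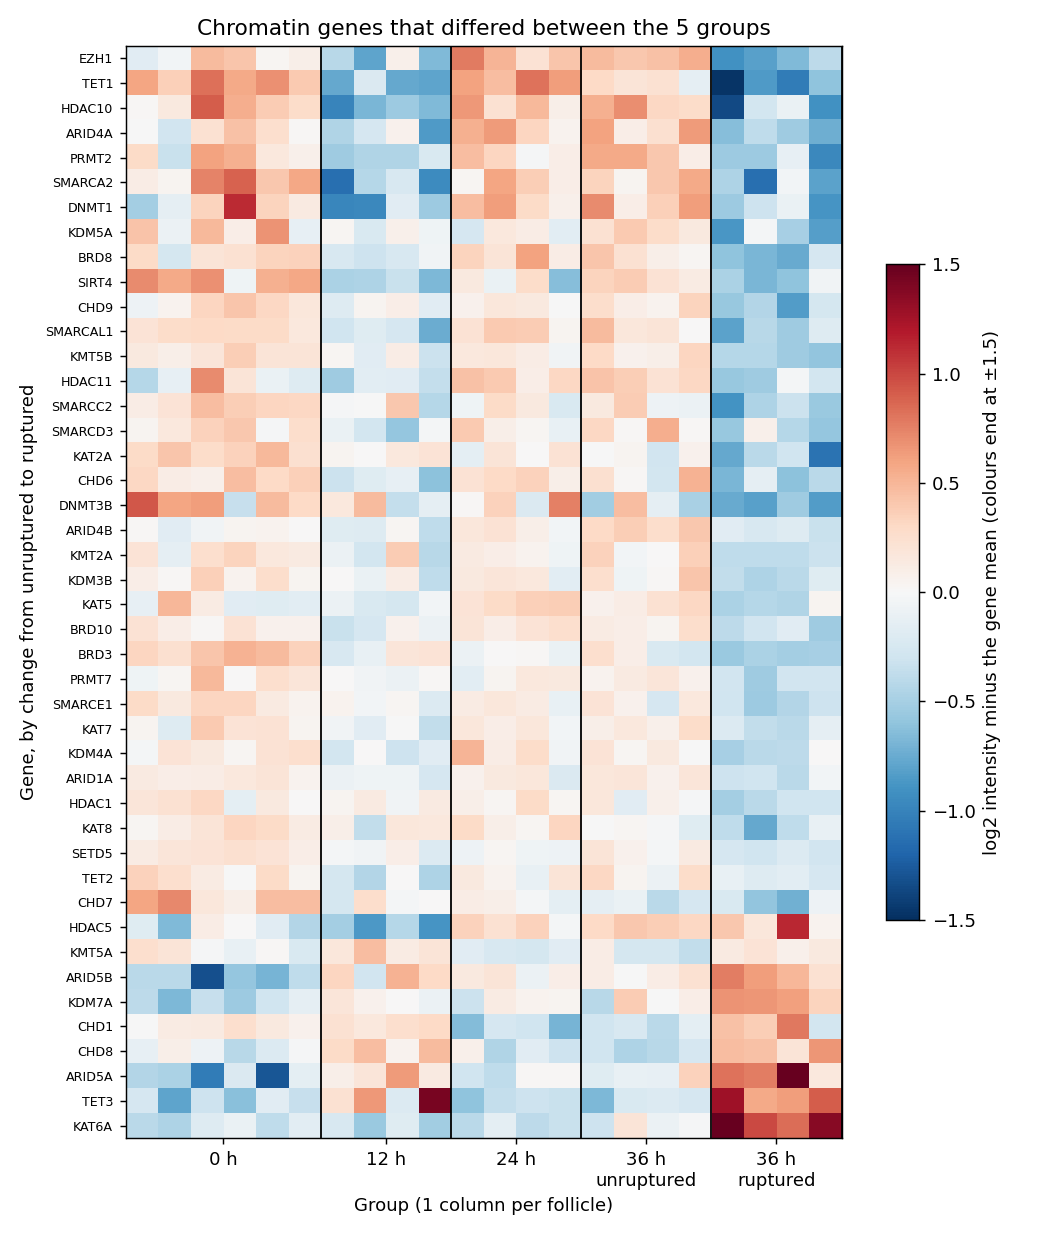
Heat map of the 44 chromatin genes that differed over the 5 groups. Each column is 1 of 22 follicles and each row a gene, coloured by its log2 intensity minus the gene's mean (colours end at 1.5 either way), with rows ordered by the change from unruptured to ruptured. Blue columns at 12 h and after rupture mark the genes that were low in both, and the red rows at the foot, down to KAT6A, the few that were high after rupture.

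Between 0 h and 12 h, 15 of the 90 genes changed, 4 higher and 11 lower, where 14.3% of all genes did (6.5% higher and 7.8% lower; 19.6% of the brighter genes). Between 12 h and 24 h, 12 changed, 8 higher and 4 lower, against 10.9% of all genes (5.84% higher, 5.02% lower; 15.3% of the brighter). These are 16.7% and 13.3% of the 90 genes, near the background. Between 24 h and the unruptured 36 h follicle none of the 90 passed, against 0.00708% of all genes; 3 had an unadjusted p under 0.05. The comparison of ruptured with unruptured follicles at 36 h gave 36 changed genes (40% of the 90), 6 higher and 30 lower, against 14.1% of all genes (6.47% higher, 7.67% lower; 19.8% of the brighter). Against 0 h, 2 genes had changed at 24 h, CHD1 lower and ARID5B higher (5.49% of all genes; 2.87% higher, 2.62% lower), 4 in the unruptured follicle (7.18%; 3.35% higher, 3.82% lower) and 41 in the ruptured one, 8 higher and 33 lower (21.3%; 9.43% higher, 11.8% lower; 28.8% of the brighter). The 2 groups compared did not overlap at all for 17 of the 90 genes at 12 h against 0 h (15% of all genes), for 24 at 24 h against 12 h (19.2%), for 4 in unruptured follicles against 24 h (5.4%) and for 37 with rupture (21.1%). With 0 h as the reference it held for 8 genes at 24 h (11.1%), for 12 before rupture (12.2%) and for 39 after it (19.2%). The median change of the 90 genes was -0.16 on the log2 scale at 12 h against 0 h and -0.16 in ruptured against unruptured follicles, where the brighter genes had medians of -0.01 and -0.07.

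The size of these counts depended on single follicles and on the estimate of spread. Without any one follicle the 12 h count lay between 8 and 18, with 9, 9 and 8 genes without 12 h replicates 1, 2 and 4. The 24 h count lay between 5 and 14, with 7 and 5 without 12 h replicates 1 and 4, and 7, 6 and 7 without 24 h replicates 1, 2 and 3. The rupture count lay between 19 and 33, with 20 and 22 without unruptured replicates 1 and 4, and 19, 21 and 22 without ruptured replicates 5, 6 and 7. Fitted to the arrays of the groups compared alone, with no spread shared from the others, the counts were 7, 1 and 6.

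The TET genes moved apart from one another. TET1 (gene ID 693707) fell within 12 h, was back at its starting level at 24 h and fell again with rupture, while TET3 (gene ID 707759) rose at both points. At 0 h TET1 had a lowest, median and highest level of 6.24, 6.46 and 6.71. The 12 h follicles read 5.12, 5.67, 5.11 and 5.09, the 24 h follicles 6.48, 6.35, 6.69 and 6.51, the unruptured ones 6.18, 6.07, 6.11 and 5.75, and the ruptured ones 4.41, 5.04, 4.83 and 5.28. All 12 h and all ruptured values thus lay below every value of the other 3 groups. The unruptured values already lay below every 0 h and 24 h value, though their change from 24 h, -0.48, did not pass. The change was -1.21 ± 0.16 (SE) at 12 h against 0 h (2.31-fold lower, adjusted p = 0.000143), 1.26 ± 0.18 from 12 h to 24 h (adjusted p = 0.000436) and -1.14 ± 0.18 from unruptured to ruptured (adjusted p = 0.000523), and each of these held in every fit that left out 1 follicle. A second, dimmer probe set of TET1 changed by -0.72, 0.78 and -0.66 with adjusted p = 0.0662, 0.0829 and 0.124.

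TET3 started between 6.60 and 7.22 at 0 h, with a median of 7.06. The 12 h follicles spread widely, at 7.62, 8.04, 7.19 and 8.82, so that the lowest of them lay within the 0 h range. It was 6.79, 7.03, 7.08 and 7.06 at 24 h and 6.72, 7.17, 7.19 and 7.14 in unruptured follicles, and then 8.66, 7.97, 8.02 and 8.30 after rupture, above every value of the 0 h, 24 h and unruptured groups. The rise at 12 h was 0.94 ± 0.23 (adjusted p = 0.0149), which missed the threshold without 12 h replicate 4 (adjusted p = 0.0574), and that with rupture 1.18 ± 0.26 (2.27-fold, adjusted p = 0.00607). The fall from 12 h to 24 h, -0.93 ± 0.26 (adjusted p = 0.0342), was lost in 6 of 8 fits that left out 1 follicle, all but those without 12 h replicates 1 and 3 (adjusted p up to 0.107). A second probe set of TET3 rose by 0.85 and 1.39 and passed in both comparisons; the dimmest of the 3 changed by 0.07 and 0.68 and did not pass. With all 3 averaged, the change was 0.62 at 12 h (adjusted p = 0.271) and 1.09 with rupture (adjusted p = 0.0548).

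By the brightest probe sets, TET2 had the smallest change of the 3 at 12 h. Its mean went from 7.93 ± 0.14 to 7.46 ± 0.22, or -0.46 ± 0.12 (adjusted p = 0.0177). The call was lost without 12 h replicates 2 and 4 (adjusted p up to 0.0664) and with probe sets averaged (0.0541). The dimmer probe set of TET2 changed by -1.09 at 12 h and did not pass, so that order depends on the probe set. With rupture the brighter one read 7.57 ± 0.06 against 7.89 ± 0.19, a difference of -0.31 that did not pass (adjusted p = 0.151). Measured within each array, the difference of TET3 minus TET2 rose by 1.41 from 0 h to 12 h, with an exact two-sided permutation p = 0.00476, the smallest that 210 arrangements can give, and adjusted p = 0.0286 over the 6 pairs of paralogues, of 16 listed, in which both genes were measured. From unruptured to ruptured TET3 changed by 1.18 and TET2 by -0.31, where 70 arrangements cannot give a p below 0.0286 and the adjusted p was 0.0857.

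DNMT1, which copies methylation onto new DNA, followed the course of TET1 with more scatter. Its level ran from 6.33 to 7.97 at 0 h with a median of 7.08. It was 5.87, 5.88, 6.67 and 6.30 at 12 h, 7.31, 7.47, 7.13 and 6.93 at 24 h, 7.55, 6.95, 7.20 and 7.48 before rupture and 6.31, 6.53, 6.75 and 5.97 after it. The 12 h and 0 h ranges overlapped, whereas the 12 h and 24 h ranges, and the ruptured and unruptured ranges, did not. The changes were -0.88 ± 0.25, 1.03 ± 0.28 and -0.91 ± 0.28 (adjusted p = 0.0349, 0.0308 and 0.0451). These calls sat near the threshold: leaving out 1 follicle ended the first in 7 of 10 fits, all but 0 h replicates 1 and 2 and 12 h replicate 3, with an adjusted p of up to 0.116. It ended the second in 6 of 8, the exceptions being 12 h replicate 3 and 24 h replicate 4 (adjusted p up to 0.0972), and the third in 6 of 8, all but unruptured replicate 2 and ruptured replicate 7 (up to 0.126). Among proliferation markers, 10 of 12 fell at 12 h, 0 changed from 12 h to 24 h, and 1 fell with rupture; their part in the DNMT1 result was not tested.

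The enzymes that place methylation anew differed in course. DNMT3B was 6.86 ± 0.43 at 0 h and 5.70 ± 0.14 after rupture, a change of -1.17 ± 0.25 (adjusted p = 0.003), with no overlap of the groups. Its values between, 6.47 ± 0.36, 6.66 ± 0.42 and 6.26 ± 0.46, did not pass against 0 h. DNMT3A read 7.44 ± 0.17 at 0 h and between 7.04 and 7.27 in the other groups and passed in no test. The within-array difference of DNMT3B minus DNMT3A changed by -0.02 at 12 h (exact permutation adjusted p = 0.924) and by -0.41 with rupture (exact permutation adjusted p = 0.171). DNMT3L, a partner without catalytic activity, was among the dimmest of the 90 genes, with group means between 1.69 and 4.01 and SDs of up to 1.75, and no change passed.

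**Figure D2:**
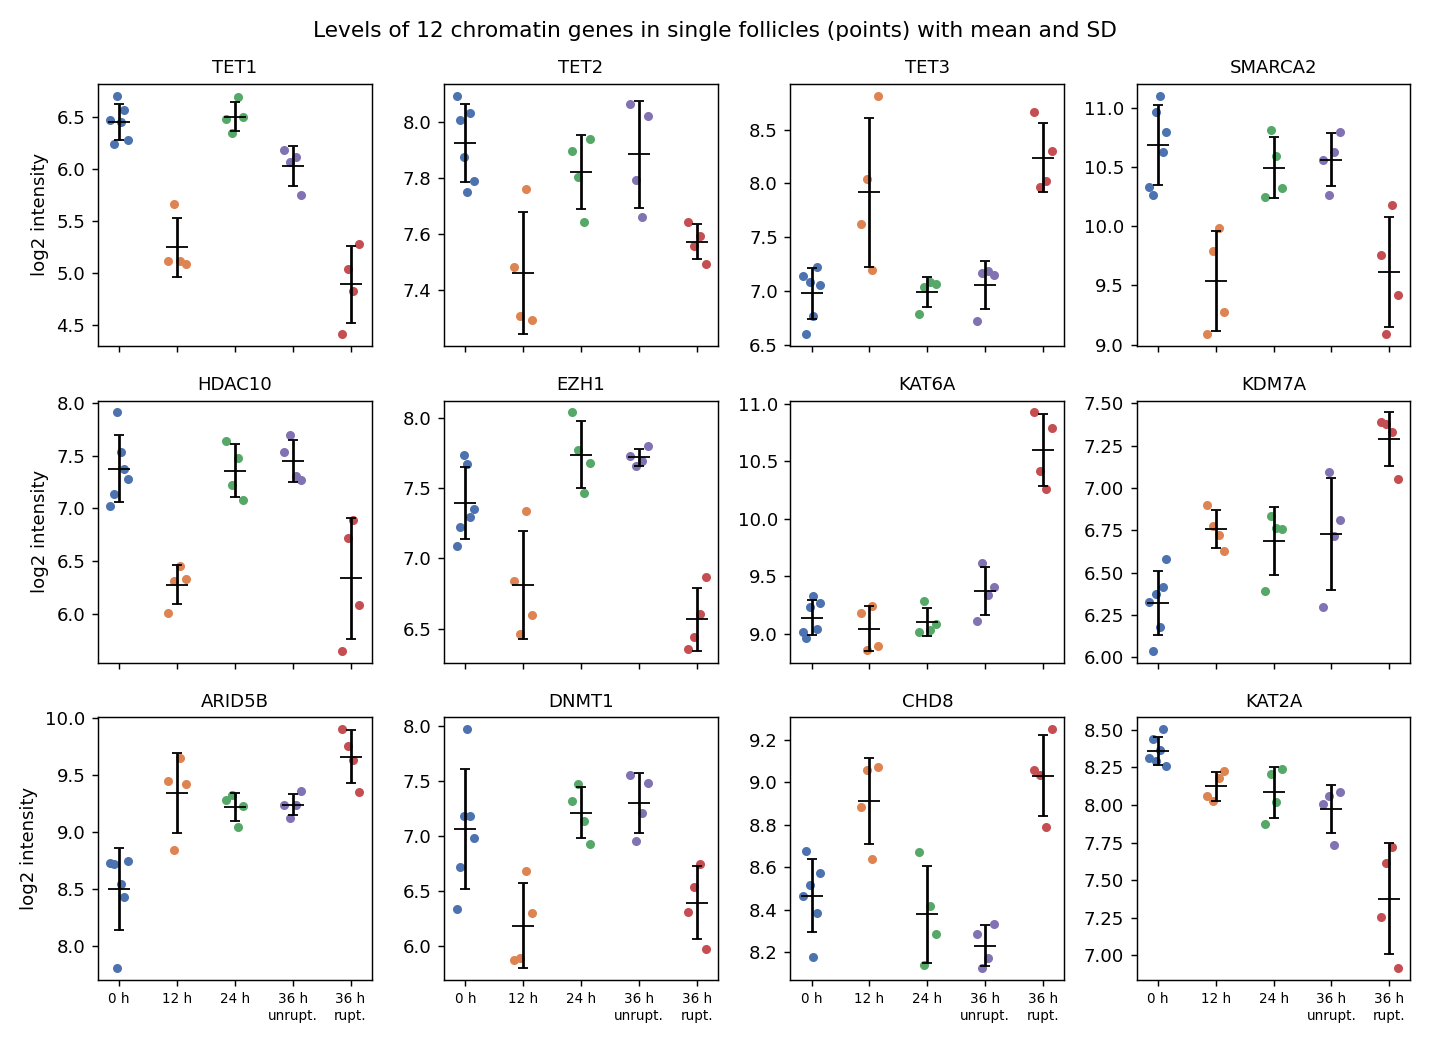
Levels of 12 chromatin genes in each follicle. Each panel is a gene, the vertical axis its log2 intensity, the points are follicles (6 at 0 h, 4 in each other group) and the bars the mean and SD; the choice of genes was made with their values known. TET1, HDAC10 and SMARCA2 were low at 12 h and after rupture, TET3 and, by its brighter probe set only, CHD8 high at both, and KAT6A stood apart after rupture.

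Of the 9 SMARC genes, 2 fell at 12 h, 2 rose from 12 h to 24 h and 5 fell with rupture, with a median change of -0.44 there. None changed the other way. SMARCAL1, which shares the symbol but is not a SWI/SNF subunit, is among the genes of each count. Over all genes 7.8% fell, 5.84% rose and 7.67% fell in the same comparisons. SMARCA2 (gene ID 696973), the BRM ATPase that drives the SWI/SNF complex, carried the largest change. At 0 h its lowest, median and highest levels were 10.27, 10.71 and 11.10. It read 9.09, 9.79, 9.99 and 9.28 at 12 h, 10.25, 10.81, 10.59 and 10.32 at 24 h, 10.56, 10.26, 10.63 and 10.79 before and 9.76, 9.09, 10.18 and 9.42 after rupture. No 12 h or ruptured follicle reached the lowest value of the other 3 groups. The change was -1.15 ± 0.23 at 12 h (2.21-fold lower, adjusted p = 0.0033), 0.96 ± 0.25 from 12 h to 24 h (adjusted p = 0.0249) and -0.95 ± 0.25 with rupture (adjusted p = 0.0199). The call at 12 h held without any one follicle. That at 24 h was lost without 12 h replicates 1 and 4 and 24 h replicates 2 and 3 (adjusted p up to 0.0922), and that with rupture without unruptured replicate 4 and ruptured replicates 6 and 8 (up to 0.0688). All 5 probe sets of SMARCA2 fell at 12 h and all 5 fell with rupture; at 24 h 4 of them rose.

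SMARCAL1, which rewinds DNA at stalled replication forks, changed by -0.62 ± 0.14, 0.62 ± 0.15 and -0.70 ± 0.15 over the same 3 steps (adjusted p = 0.0064, 0.0147 and 0.00524); the rise at 24 h was lost without 12 h replicate 4 (adjusted p = 0.0556). In contrast, SMARCB1, a core subunit of SWI/SNF, had group means between 9.27 and 9.37. Its difference was -0.08 at 12 h (95% interval -0.31 to 0.15) and 0.00 with rupture (-0.25 to 0.26). The scaffold subunits SMARCC2 and SMARCC1 are close paralogues. Within arrays, SMARCC2 minus SMARCC1 fell by 0.41 at 12 h (exact permutation p = 0.0238, adjusted p = 0.0476) and by 0.77 with rupture (exact permutation adjusted p = 0.0857). At 12 h the brightest probe set of SMARCC2 changed by -0.31 and its others by 0.28 and 0.34, none of which passed. The direction of SMARCC2 there depends on the probe set. SMARCD3 minus SMARCD1, 2 accessory subunits that bind transcription factors, fell by 0.52 at 12 h (exact permutation adjusted p = 0.0476) and by 0.65 with rupture (exact permutation adjusted p = 0.171). Of the 3 pairs that passed at 12 h, between 0 and 3 passed when 1 follicle was left out: 0 without 12 h replicate 1, 3 or 4, and 1 without 0 h replicate 2, 3, 4 or 6. Leaving out 1 follicle leaves fewer arrangements and raises the smallest p that this test can give. That limit is the same for every follicle of a group, yet the counts differed within groups. Without 12 h replicate 2, 2 pairs passed, 1 of them among the 3, and without 0 h replicate 1 all 3 passed. The counts thus varied with the follicle left out, beyond the limit on p. When all probe sets of a gene were averaged, 0 passed.

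The 7 ARID genes split. ARID5A, an RNA-binding protein known to stabilise cytokine messages, and ARID5B, a DNA-binding partner of a histone demethylase, had higher means in every group given hCG than at 0 h. ARID5B had a median of 8.64 at 0 h, between 7.81 and 8.75. It read 9.45, 8.85, 9.65 and 9.42 at 12 h, and 9.90, 9.75, 9.63 and 9.35 after rupture, with means of 9.22 ± 0.12 at 24 h and 9.24 ± 0.09 before rupture. The lowest follicle after hCG was above the highest before it. The rise over 0 h came to 0.84 ± 0.18, 0.72 ± 0.18, 0.74 ± 0.18 and 1.16 ± 0.18 for 12 h, 24 h, unruptured and ruptured (adjusted p = 0.00563, 0.0318, 0.0225 and 0.000201). The 24 h call was lost without 0 h replicates 3 and 5 and 24 h replicates 1, 2 and 4 (adjusted p up to 0.0898), and the unruptured one without unruptured replicates 1, 3 and 4 (up to 0.0729). A second, dim probe set of ARID5B varied more, and with both averaged the rises of 1.03 at 12 h, 0.63 at 24 h and 0.94 before rupture did not pass (adjusted p = 0.088, 0.444 and 0.182), while that after rupture did. ARID5A had means of 5.07 ± 0.46, 5.93 ± 0.26, 5.51 ± 0.21, 5.65 ± 0.24 and 6.49 ± 0.57. Its rise passed at 12 h (0.86 ± 0.25, adjusted p = 0.0346) and in ruptured follicles against 0 h (1.42 ± 0.25, adjusted p = 0.00058); the 12 h call was lost without 0 h replicate 3 or 5 or any one 12 h follicle (adjusted p up to 0.111).

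ARID4A, a subunit of the Sin3 deacetylase complex, went the other way. It read 7.09 ± 0.25 at 0 h and 6.61 ± 0.38 at 12 h, and then rose to 7.37 ± 0.26 at 24 h (0.76 ± 0.20, adjusted p = 0.0251, lost without 12 h replicates 1 and 4 and 24 h replicates 1 and 2, up to 0.0917). After rupture it was 6.41 ± 0.15 against 7.38 ± 0.26 before, a change of -0.97 ± 0.20 (adjusted p = 0.00394) with no overlap. Its homologue ARID4B, outside the rule for named genes and picked after its values were seen, was 0.35 ± 0.09 higher in unruptured follicles than at 0 h (adjusted p = 0.0387) and changed by -0.57 ± 0.10 with rupture (adjusted p = 0.0018). The first of these was lost in each of the 10 fits without 1 follicle (adjusted p up to 0.115). ARID1A, the large SWI/SNF subunit, was also among the 3 ARID genes that fell with rupture, where 7.67% of all genes fell.

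Among the 7 CHD remodellers, 2 rose and 2 fell with rupture, where 6.47% of all genes rose and 7.67% fell. CHD8, a helicase that also represses beta-catenin targets, read 8.47 ± 0.17, 8.91 ± 0.20, 8.38 ± 0.23, 8.23 ± 0.10 and 9.03 ± 0.19 over the 5 groups. It changed by 0.45 ± 0.13 at 12 h, -0.53 ± 0.14 at 24 h and 0.80 ± 0.14 with rupture (adjusted p = 0.0388, 0.0305 and 0.00161). The first was lost in 7 of 10 fits without 1 follicle, all but 0 h replicates 2 and 6 and 12 h replicate 3 (adjusted p up to 0.119), the second in 6 of 8, the exceptions being 12 h replicate 3 and 24 h replicate 1 (adjusted p up to 0.105). The dimmer of its 2 probe sets changed the opposite way, by -0.15 at 12 h and -0.25 with rupture (neither passed), and passed as lower in ruptured follicles against 0 h (-0.37 ± 0.10, adjusted p = 0.0143) where the brighter was higher (0.56 ± 0.13, adjusted p = 0.00581). The direction of CHD8 therefore depends on the probe set, and with both averaged the rupture change was 0.28 (adjusted p = 0.113). CHD1, a remodeller of transcribed genes, fell from 8.79 ± 0.06 at 12 h to 8.08 ± 0.23 at 24 h (-0.71 ± 0.17, adjusted p = 0.0145, and 0.0531 without 24 h replicate 1). With rupture it rose from 8.28 ± 0.10 to 8.89 ± 0.44 (0.60 ± 0.17, adjusted p = 0.0272), a call lost in 6 of 8 fits, all but those without unruptured replicate 4 and ruptured replicate 8 (up to 0.0965). CHD7, seen to differ only after its values were examined, was 0.64 ± 0.15 lower in unruptured follicles than at 0 h (adjusted p = 0.0196; lost without unruptured replicates 3 and 4, up to 0.075).

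All 5 acetyltransferases differed over the 5 groups, with 1 rising and 3 falling at rupture. Over all genes 29% differed over the 5 groups (40.1% of the brighter), and 6.47% rose and 7.67% fell with rupture. KAT6A (gene ID 703800), the MOZ enzyme, had the largest rise of the 90 genes in that comparison. Its lowest, median and highest levels were 8.96, 9.14 and 9.33 at 0 h. It was 9.18, 8.86, 9.24 and 8.90 at 12 h, 9.02, 9.28, 9.03 and 9.09 at 24 h and 9.12, 9.62, 9.34 and 9.41 before rupture. After rupture it read 10.92, 10.42, 10.26 and 10.79, each above every other follicle of the study. The change from unruptured to ruptured was 1.23 ± 0.16 (2.34-fold, adjusted p = 9.9e-05) and against 0 h 1.46 ± 0.14 (adjusted p = 2.14e-06); both held without any one follicle. The 2 dimmer probe sets of KAT6A changed by 1.13 ± 0.63 and 0.67 ± 0.55 with rupture, the same direction but with SEs too wide to pass, and with the 3 averaged the rupture change was 1.01 (adjusted p = 0.0985).

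KAT2A, the GCN5 acetyltransferase of the SAGA complex, fell. It is outside the rule for named genes and was picked after its values were seen. Its 0 h levels lay between 8.26 and 8.50 with a median of 8.34, and it was 8.06, 8.03, 8.18 and 8.23 at 12 h. Before rupture it read 8.01, 8.06, 7.74 and 8.09, and after it 7.25, 7.62, 7.72 and 6.92, with no overlap. Against 0 h the ruptured follicles were lower by 0.99 ± 0.14 on the log2 scale (adjusted p = 7.67e-05), which held without any one follicle, and against unruptured ones by 0.60 ± 0.15 (adjusted p = 0.0164), lost without unruptured replicate 4 and ruptured replicates 5 and 8 (up to 0.0532).

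EZH1 (gene ID 711173), a catalytic subunit of Polycomb repressive complexes, was the only EZH gene measured under a single symbol. At 0 h its lowest, median and highest levels were 7.09, 7.32 and 7.74. It read 6.84, 6.46, 7.34 and 6.60 at 12 h, 8.04, 7.77, 7.47 and 7.68 at 24 h, 7.73, 7.66, 7.69 and 7.80 before rupture and 6.35, 6.44, 6.60 and 6.86 after it. The ruptured values lay below all 24 h, unruptured and 0 h values, whereas the 12 h and 0 h ranges overlapped. The change with rupture was -1.16 ± 0.19 (2.23-fold lower, adjusted p = 0.000707) and that from 12 h to 24 h 0.93 ± 0.19 (adjusted p = 0.00537), and both held without any one follicle. The fall at 12 h, -0.59 ± 0.17 (adjusted p = 0.0375), was lost in 7 of 10 fits, all but 0 h replicates 1 and 2 with 12 h replicate 3 (up to 0.139). The 2 other probe sets of EZH1 were dim, with means of 3.83 and 2.48 over all arrays, and changed by 0.67 and 0.14 at 12 h; with all 3 averaged the 12 h change was 0.07, that at 24 h 0.48 (adjusted p = 0.618) and that with rupture -1.08 (adjusted p = 0.133).

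The other lysine methyltransferases gave smaller changes. KMT5B, which methylates histones of silent chromatin, was 9.25, 9.01, 9.03 and 9.27 before rupture and 8.51, 8.52, 8.42 and 8.35 after it. The change, -0.69 ± 0.11 (adjusted p = 0.000827), held without any one follicle. KMT5A, the monomethylase of the same family, fell from 7.37 ± 0.15 at 12 h to 6.92 ± 0.05 at 24 h (-0.45 ± 0.13, adjusted p = 0.0392), a call that 7 of 8 fits without 1 follicle lost, all but that without 12 h replicate 3 (up to 0.116). KMT2A, a trithorax-group enzyme also known as MLL, had 11 probe sets, of which 5 passed as lower with rupture and none as higher. Among the 7 SETD genes, SETD5 fell with rupture by 0.35 ± 0.09 on the log2 scale (adjusted p = 0.0225), lost without unruptured replicates 1 and 4 and ruptured replicate 6 (up to 0.0748); its 4 probe sets averaged changed by -0.10 (adjusted p = 0.622). SETD9 rose by 0.75 ± 0.23 (adjusted p = 0.0435), lost in 6 of 8 fits, all but those without unruptured replicate 3 and ruptured replicate 8 (up to 0.122), and with probe sets averaged (adjusted p = 0.0871).

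Of the 7 arginine methyltransferases, PRMT2, which also acts as a coactivator of nuclear receptors, was low at 12 h and after rupture. Its means were 9.46 ± 0.34, 8.82 ± 0.13, 9.45 ± 0.22, 9.65 ± 0.22 and 8.69 ± 0.35. The 12 h change was -0.63 ± 0.18 (adjusted p = 0.0352), lost in 7 of 10 fits, all but 0 h replicates 2 and 6 with 12 h replicate 4 (up to 0.0976). That with rupture was -0.96 ± 0.20 (adjusted p = 0.00494), with no overlap, and held without any one follicle. PRMT1, the main enzyme that places asymmetric dimethylarginine, read 9.36 ± 0.19 at 0 h and 9.80 ± 0.29 at 12 h, a difference of 0.44 (95% interval 0.05 to 0.84) that did not pass (adjusted p = 0.168).

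**Figure D3:**
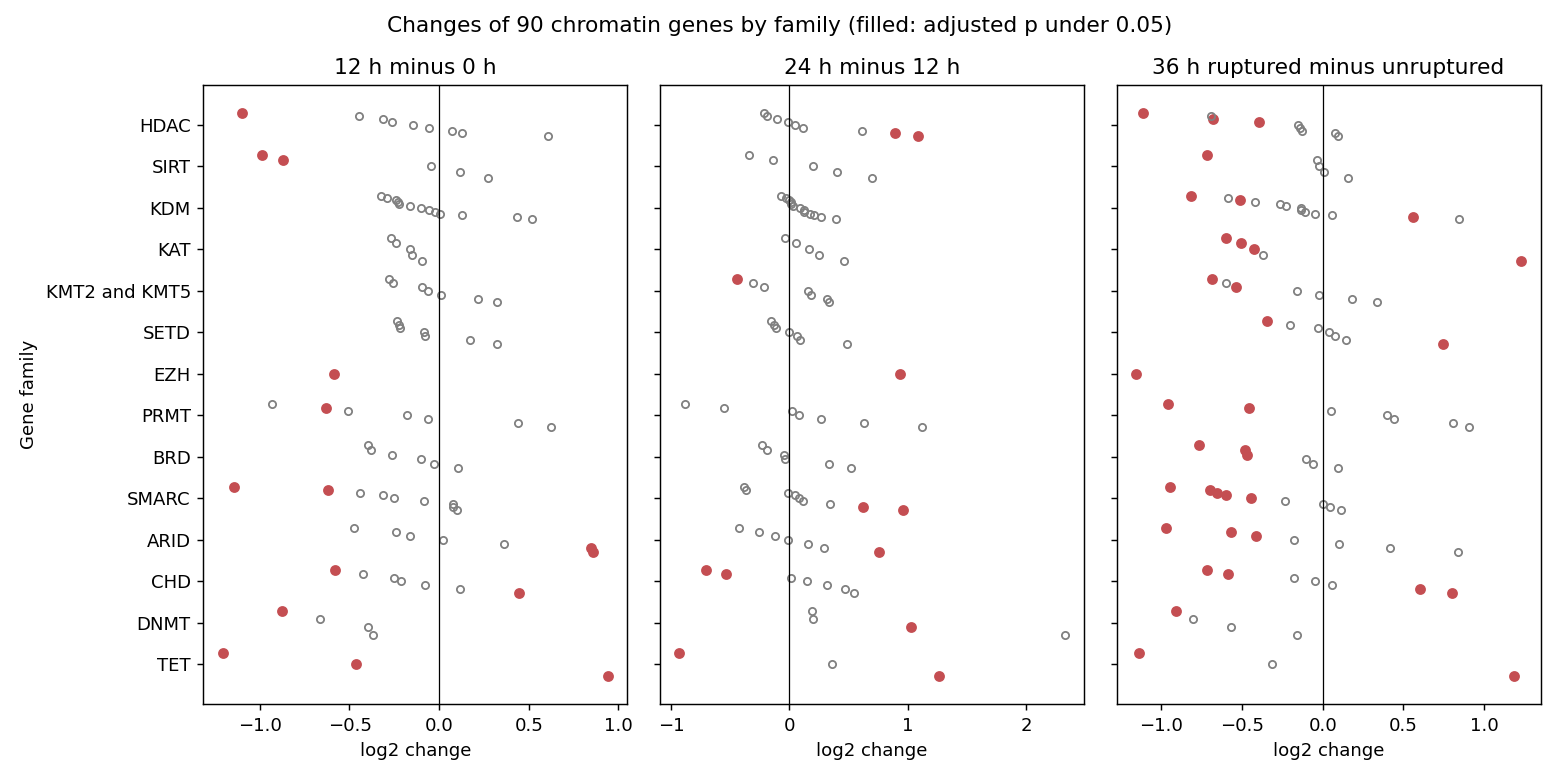
Changes of the 90 chromatin genes by family in 3 comparisons. The horizontal axis is the log2 change, each point a gene in the row of its family, and filled red points passed at an adjusted p under 0.05. With rupture the filled points lie mostly left of 0, and the TET, CHD, KAT, KDM and SETD rows hold points that passed on both sides.

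Of the 9 deacetylase genes, HDAC10 (gene ID 715698), known as a polyamine deacetylase of the cytoplasm, changed at each step but the one from 24 h to the unruptured follicle. Its lowest, median and highest levels at 0 h were 7.02, 7.33 and 7.91. The 12 h follicles read 6.01, 6.31, 6.45 and 6.33, the 24 h ones 7.64, 7.22, 7.48 and 7.08, the unruptured ones 7.53, 7.69, 7.30 and 7.27 and the ruptured ones 5.65, 6.72, 6.89 and 6.08. No 12 h or ruptured follicle overlapped the other 3 groups. The changes were -1.10 ± 0.22 (2.14-fold lower), 1.08 ± 0.24 and -1.11 ± 0.24 (adjusted p = 0.00325, 0.00973 and 0.00573), and all 3 held without any one follicle. The rise at 24 h was lost with the 3' minus 5' index as covariate and with only the groups compared (adjusted p up to 0.0575). The fall with rupture was also lost with only the groups compared. HDAC5, which shuttles between nucleus and cytoplasm, rose from 6.85 ± 0.24 at 12 h to 7.75 ± 0.18 at 24 h (0.89 ± 0.21, adjusted p = 0.0126). Its other probe set changed by 0.32 and the average of both by 0.61 (adjusted p = 0.122). The brighter one was 7.86 ± 0.05 before and 7.96 ± 0.48 after rupture.

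HDAC1 and HDAC2, the paired catalytic subunits of the Sin3, NuRD and CoREST complexes, had their lowest means after rupture. HDAC1 read 8.80 ± 0.17, 8.74 ± 0.09, 8.79 ± 0.12, 8.70 ± 0.15 and 8.30 ± 0.10, and its change with rupture was -0.40 ± 0.12 (adjusted p = 0.0398), lost in 6 of 8 fits, all but those without unruptured replicate 2 and ruptured replicate 8 (up to 0.122), and with probe sets averaged (adjusted p = 0.0879). HDAC2 read 9.51 ± 0.11, 9.36 ± 0.07, 9.15 ± 0.26, 9.26 ± 0.14 and 9.11 ± 0.16, with a difference of -0.15 with rupture (95% interval -0.43 to 0.12). Against 0 h both were lower in ruptured follicles, by 0.50 and 0.40 on the log2 scale (adjusted p = 0.00327 and 0.028; the second was lost without 0 h replicates 1 and 5 and ruptured replicates 6 and 7, up to 0.0996). The within-array difference of HDAC2 minus HDAC1 changed by -0.08 at 12 h and 0.24 with rupture (exact permutation adjusted p = 0.577 and 0.257).

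The sirtuins that changed were the mitochondrial ones. SIRT4 was 6.49 ± 0.29 at 0 h and 5.52, 5.53, 5.66 and 5.32 at 12 h, lower than every 0 h follicle, with a change of -0.99 ± 0.18 (adjusted p = 0.00181) that held without any one follicle. With rupture it changed by -0.72 ± 0.20 (adjusted p = 0.0261), lost without unruptured replicates 1 and 2 and ruptured replicates 5, 6 and 7 (up to 0.0741) and with probe sets averaged (-0.62, adjusted p = 0.251). SIRT5 was 6.82 ± 0.27 at 0 h and 5.95 ± 0.23 at 12 h (-0.87 ± 0.22, adjusted p = 0.0157, and 0.0586 without 12 h replicate 4). Its other, dimmer probe set changed by -0.09, and the average of both by -0.48 (adjusted p = 0.464). The brighter one read 6.64 ± 0.48 before and 6.62 ± 0.25 after rupture. SIRT1, the nuclear sirtuin, had group means between 8.61 and 8.81. Its difference was -0.04 at 12 h (95% interval -0.36 to 0.27) and -0.04 with rupture (-0.38 to 0.31).

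None of the 13 demethylases passed at 12 h or 24 h (limma; 3 and 1 had an unadjusted p under 0.05), and with rupture 1 rose and 2 fell. Over all genes 14.3% passed at 12 h and 10.9% at 24 h, and with rupture 6.47% rose and 7.67% fell. KDM7A, which removes repressive methyl marks, was 6.32 ± 0.19 at 0 h, with a highest follicle of 6.58, and 7.39, 7.38, 7.33 and 7.05 after rupture. Its rise against 0 h was 0.97 ± 0.15 (adjusted p = 0.000156), which held without any one follicle. Against unruptured follicles, which spread from 6.30 to 7.10, it was 0.56 ± 0.16 (adjusted p = 0.0327), lost in 6 of 8 fits, all but those without unruptured replicate 2 and ruptured replicate 8 (up to 0.122). KDM5A, which strips activating methyl marks from promoters, fell from 8.21 ± 0.10 to 7.40 ± 0.39 with rupture (-0.82 ± 0.20, adjusted p = 0.0114), and this held without any one follicle. KDM6B, a demethylase of Polycomb-marked genes, was dim and scattered. It read between 3.79 and 4.34 at 0 h, 5.38, 4.60, 2.59 and 5.57 at 12 h and 5.41, 5.33, 5.57 and 4.37 after rupture, and its difference of 1.15 between ruptured and 0 h follicles (95% interval 0.23 to 2.07) did not pass (adjusted p = 0.0867).

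Among the 6 bromodomain genes 3 fell with rupture and none rose, where 7.67% of all genes fell and 6.47% rose. BRD3, a BET protein that binds acetylated histones, was lowest after rupture. Its 0 h levels were 9.07 to 9.35 with a median of 9.21, and it read 8.27, 8.35, 8.31 and 8.33 after rupture, the lowest 4 values of the study. The change was -0.90 ± 0.12 against 0 h (adjusted p = 4.06e-05), which held without any one follicle. Against unruptured follicles it was -0.47 ± 0.13 (adjusted p = 0.026), lost without unruptured replicates 1 and 2 and ruptured replicates 5 and 7 (up to 0.0982) and with probe sets averaged (adjusted p = 0.0646). Between unruptured follicles and 0 h it was -0.43 ± 0.12 (adjusted p = 0.0431), lost in 8 of 10 fits, all but those without 0 h replicate 2 and unruptured replicate 1 (up to 0.16), and with probe sets averaged (adjusted p = 0.159). BRD2, another BET protein, had group means between 9.71 and 9.86, with a difference of -0.06 with rupture (95% interval -0.30 to 0.18).

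The comparisons of 12 h with 0 h and of ruptured with unruptured follicles share no array, so their changes can be set beside each other. Their tests are not separate, since the same fit to all groups gave each gene's estimate of spread for both. A gene with a small spread passes more easily in both comparisons, so passing in both is not independent support. As a description made after seeing the data, 11 genes passed in both by their brightest probe set, all in the same direction: 73.3% of the 15 at 12 h and 30.6% of the 36 with rupture. Over all single-symbol genes, 855 passed in both, and the 845 that did so in the same direction were 41.8% of the 12 h calls and 42.3% of the rupture calls. TET1, SMARCA2, HDAC10, SIRT4, DNMT1, PRMT2, EZH1, SMARCAL1 and CHD6 were lower in both, and TET3 and CHD8 higher. The direction of CHD8 turns with the probe set, and that of EZH1 at 12 h turns with its probe sets averaged. Without this pair 9 genes passed in both, 69.2% of the 12 h and 26.5% of the rupture calls that remained. Across the 90 genes, which share arrays and are not independent replicates, the 2 sets of changes had a Pearson correlation of 0.64 and a Spearman correlation of 0.65. Over all 14132 genes Pearson's was 0.42, and over the 9566 brighter ones 0.59. KAT6A changed with rupture and by -0.10 at 12 h (adjusted p = 0.768), and SIRT5 changed at 12 h and by -0.02 with rupture (adjusted p = 0.977).

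**Figure D4:**
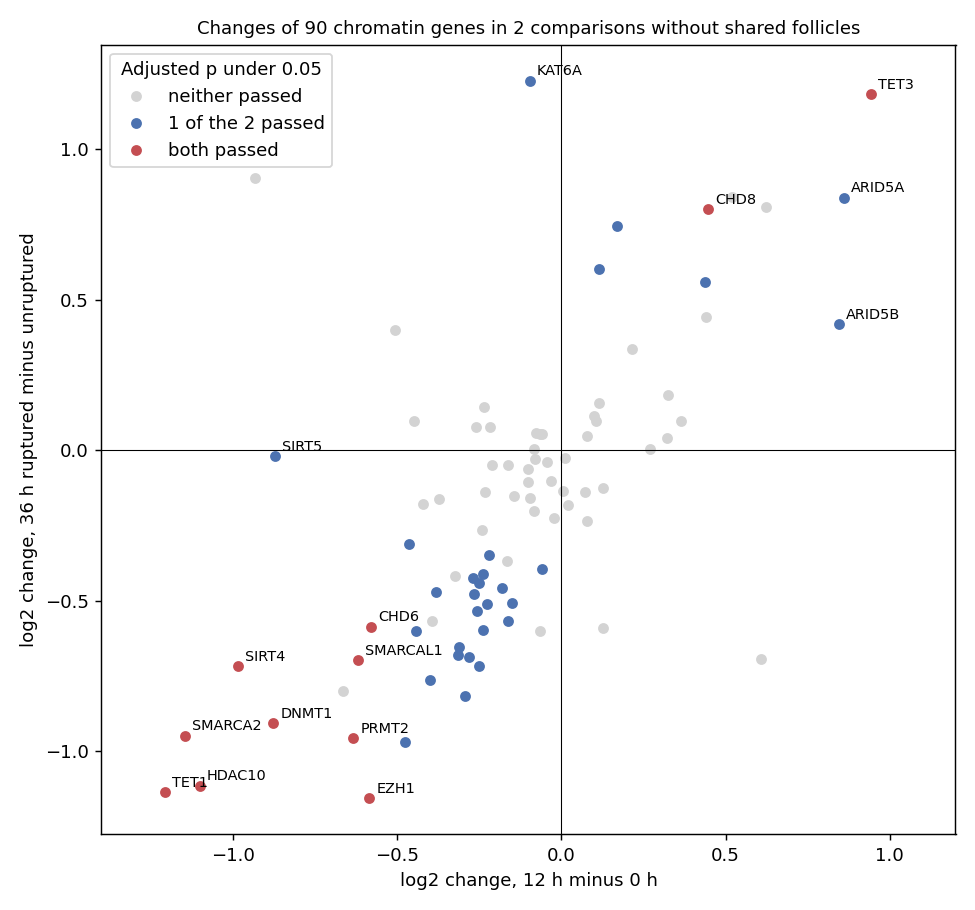
Changes of the 90 chromatin genes at 12 h and with rupture. Each point is a gene, the horizontal axis its log2 change at 12 h against 0 h and the vertical axis that of ruptured against unruptured follicles, with red points passing in both comparisons and blue in 1. The 11 red points, 9 low in both and 2 high in both, lie along the diagonal by their brightest probe sets (CHD8 and, at 12 h, EZH1 turn with other probe sets), and KAT6A and SIRT5 near the axes.

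Where a gene had several probe sets, they did not always pass together. Of the 12 genes with several probe sets that passed at 12 h, 5 had another probe set that passed the same way. With rupture it was 14 of 29, and in ruptured follicles against 0 h 18 of 32. A probe set that passed the opposite way was seen in 1 case, that of CHD8. The same shares over all genes with several probe sets were not computed, so these counts have no background.

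**Figure D5:**
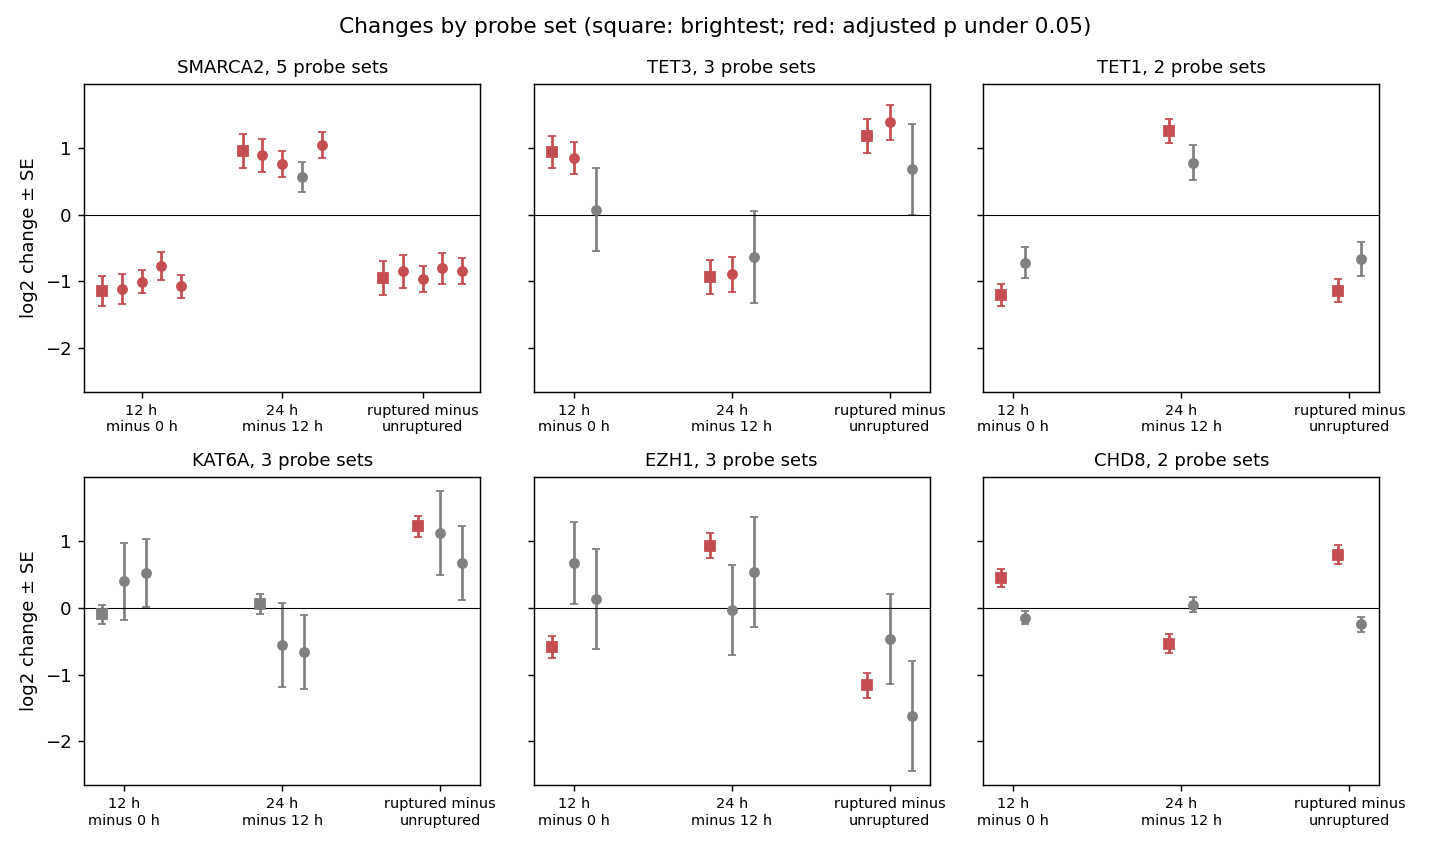
Changes by probe set for 6 chromatin genes in 3 comparisons. The vertical axis is the log2 change with its SE, each point a probe set, squares the brightest of the gene and red an adjusted p under 0.05; their choice was made with their values known. The 5 probe sets of SMARCA2 moved together, while the second of CHD8 lay on the other side of 0 and the dim ones of EZH1 and KAT6A had wide SEs.

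The partners of these enzymes were followed in 6 lists of genes of the same complexes. Over all single-symbol genes 14.3% changed at 12 h, 10.9% at 24 h and 14.1% with rupture, the background for each list. Of 12 measured genes of the deacetylase complexes, 4 fell at 12 h, 4 rose from 12 h to 24 h and 4 fell with rupture, with none the other way, 33.3% of the list each time. MTA2, a NuRD subunit, read 7.16 at 0 h, 5.84 at 12 h, 7.07 at 24 h, 7.34 before and 6.43 after rupture. Its changes were -1.32 ± 0.18, 1.22 ± 0.20 and -0.92 ± 0.20 (adjusted p = 0.000189, 0.00128 and 0.00648). RCOR3, of the CoREST complex, changed by -0.65 ± 0.14 at 12 h and -1.02 ± 0.15 with rupture, and MTA3, a NuRD subunit like MTA2, by 0.90 ± 0.14 from 12 h to 24 h.

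Of 16 genes of the acetyltransferase complexes, 1 rose and 1 fell at 12 h, 1 rose and 2 fell at 24 h, and 2 rose and 5 fell with rupture, or 12.5%, 18.8% and 43.8% of the list. EP400, the ATPase of the NuA4 complex, rose by 0.70 ± 0.18, fell by 0.66 ± 0.19 on the log2 scale and rose by 0.97 ± 0.19 (adjusted p = 0.0155, 0.0436 and 0.00313). NCOA2, a steroid receptor coactivator, fell by 0.74 ± 0.12 on the log2 scale with rupture. Among 29 Polycomb and silencing genes, 2 rose and 3 fell at 12 h, 1 rose and 1 fell at 24 h, and 4 fell with rupture. At 17.2%, 6.9% and 13.8% of the list, these shares lay near or below the background. CBX7, a Polycomb reader, changed by 0.91 ± 0.24 at 24 h and -1.18 ± 0.24 with rupture (adjusted p = 0.0282 and 0.00403).

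Among 15 partners of the methyltransferases 3 fell at 12 h, 0 changed at 24 h (6 had an unadjusted p under 0.05), and 1 rose and 1 fell with rupture, or 20%, 0% and 13.3% of the list, the last near the background. The one that rose was DOT1L, a methyltransferase of transcribed chromatin, from 4.78 to 6.32 (1.53 ± 0.25, adjusted p = 0.000772). Of 22 remodeller partners, 1 rose and 4 fell at 12 h, 1 rose and 2 fell at 24 h, and 2 rose and 5 fell with rupture, or 22.7%, 13.6% and 31.8% of the list. HMGB2, an abundant DNA-bending protein, changed by -1.10 ± 0.16 at 12 h and -0.94 ± 0.17 with rupture (adjusted p = 0.000225 and 0.00171) and did not pass at 24 h. Of 10 histone chaperones 2 fell at 12 h, CHAF1A of the replication-coupled assembly factor (-1.02 ± 0.17) and HJURP of the centromere (-0.93 ± 0.21), 0 changed at 24 h (3 had an unadjusted p under 0.05), and HIRA, of the replication-independent pathway, rose with rupture (0.56 ± 0.16), or 20%, 0% and 10% of the list. Proliferation markers fell at 12 h beside them; their part was not tested.

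Of the 90 genes, 41 passed in none of the 8 tests. The share of all genes that passed in none was not computed, so that count has no background. The 41 include all of HDAC3, HDAC6, HDAC8 and HDAC9, 8 of the 13 demethylases and 5 of the 7 arginine methyltransferases. A miss does not show equal levels: in the self-test on simulated data, 60 of 100 changes of 2-fold and 94 of 100 of 4-fold were recovered in the comparison of ruptured with unruptured follicles. Those changes were placed only in probe sets brighter than the median, with all others unchanged. The rates therefore do not cover dim genes, nor a comparison in which many genes change.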

How the data were processed

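Total RNA of 22 single follicles was hybridised to rhesus macaque Affymetrix arrays. The deposited values are intensities on a linear scale, made with RMA per the submitters' processing notes; the version of that tool was not stated. RMA as commonly run equalises the distributions of arrays, in which case a change shared by all genes would not be seen. Array medians lay between 26.2 and 26.7, and the number of arrays limits the precision. The log2 of the deposited intensity was taken here, 99 control probe sets were left out, and 52766 were fitted in limma 3.58.1 (R 4.3.3) with lmFit and eBayes on the group means of all 22 arrays. P-values were Benjamini-Hochberg adjusted over all probe sets, and a gene passed at an adjusted p under 0.05. Symbols came from the platform annotation: 24956 probe sets had 1 symbol, 361 several and 27449 none.

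Pairs of paralogues were compared by exact two-sided permutation tests of within-array differences. Genes were named when among the 8 highest or lowest that passed in a successive comparison, when changed by 1 or more on the log2 scale in any contrast, when they had the smallest F-test p of their family, or when on a panel given whatever the test showed (HDAC1, HDAC2, SIRT1, EZH1, DNMT1, TET2 and KDM6B; the other genes listed for it were not analysed here). Up to 2 genes were named per partner list and comparison. The members and lists were chosen with earlier results of these data known. In simulated data, 58 to 67 of 100 changes of 2-fold and 92 to 98 of 100 of 4-fold were recovered, with 5 to 12 false calls per comparison. The changes were placed only in probe sets brighter than the median. The alternatives were an added intensity of 16, brighter probe sets only, quantile normalization, array weights, the 3' minus 5' index as covariate, a replicate block, averaged probe sets, an intensity trend, only the groups compared, and leaving out each follicle. Some labels of the 0 h to 24 h arrays describe a corpus luteum where their title and tissue name a follicle; the title and tissue were used. Sequences were not used here.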

Additional observations from a re-analysis of the deposited data

Results flagged for a closer look

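In 11 of 150 groups of 4 to 6 follicles examined for the named genes, 1 follicle lay far from the others of its group; chance gives about 1 in 20. ARID5A was 6.01 in unruptured replicate 4, where the others of the group read 5.49 to 5.56. ARID5B was 7.81 in 0 h replicate 3 (others 8.43 to 8.75). KDM6B was 4.11 in 24 h replicate 4 (others 4.99 to 5.05). KDM7A was 6.39 in 24 h replicate 1 (others 6.76 to 6.83). KMT5B was 9.32 in 0 h replicate 4 (others 9.03 to 9.14). SIRT1 was 8.32 in 0 h replicate 2 (others 8.67 to 8.79). SIRT4 was 5.93 in 0 h replicate 4 (others 6.52 to 6.70). SIRT5 was 6.99 in ruptured replicate 7 (others 6.45 to 6.52). TET1 was 5.67 in 12 h replicate 2 (others 5.09 to 5.12). TET3 was 6.79 in 24 h replicate 1 (others 7.03 to 7.08) and 6.72 in unruptured replicate 1 (others 7.14 to 7.19).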

How the results depend on the processing

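Of 1323 alternative values for the 73 results on named genes, 1036 kept their direction and side of the threshold, 286 no longer passed and 1 reversed; 9 of the 73 results were unchanged under every alternative. The reversed one was EZH1 at 12 h, at 0.0735 with its probe sets averaged. Counts are given in the order 12 h against 0 h, 24 h against 12 h, ruptured against unruptured, 24 h against 0 h and unruptured against 0 h, where they moved by over 1.5 times. With only the groups compared they were 7, 1, 6, 0 and 0. With brighter probe sets only, 25 passed at 12 h, 25 at 24 h, 6 at 24 h against 0 h and 7 in unruptured follicles against 0 h. With probe sets averaged, 20 passed with rupture and 0 at 24 h against 0 h, and 0 paralogue pairs at 12 h. With an intensity trend 20 passed at 24 h against 12 h and 4 at 24 h against 0 h. With the 3' minus 5' index as covariate 24 passed with rupture, given here although it was not over that limit. Among the genes named by the rule, SMARCA2, DNMT1, KDM7A, CHD1, SETD5, SETD9 and BRD3 then no longer passed with rupture. Nor did PRMT2 and ARID5A at 12 h, or HDAC10 and KMT5A at 24 h against 12 h. Against 0 h, BRD3 in unruptured and HDAC2 in ruptured follicles were lost as well. Leaving out 1 follicle gave 34 to 45 over the 5 groups, 8 to 18, 5 to 14, 19 to 33, 0 to 2 and 0 to 3, 0 to 0 for unruptured against 24 h, 36 to 42 for ruptured against 0 h, 0 to 3 pairs at 12 h and 0 to 0 pairs with rupture. For the pairs, the small number of arrangements limits how small a p can be. That limit is the same for every follicle of a group, yet at 12 h the counts differed between follicles of the same group. The replicate numbers are not said to pair follicles: of 26 same-numbered pairs, 1 correlated over 0.1 (range -0.18 to 0.17). With the replicate block 14 passed over the 5 groups, 6 at 12 h, 7 at 24 h, 0 with rupture, 0 at 24 h and 0 in unruptured follicles against 0 h, and 6 in ruptured against 0 h. Unruptured follicles are numbered 1 to 4 and ruptured ones 5 to 8, so no block holds both. The ruptured group is linked to the others only through 0 h replicates 5 and 6. The 0 with rupture therefore says little about those changes. The causes of the differences between settings were not tested.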
